A study of Rattus norvegicus with 10 samples.

Results

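Lilrb3, Lilrb4, Cd300a, Cd300lf, Sirpa, Fcgr2b and Cd200r1 encode inhibitory receptors of myeloid leukocytes, and their messenger RNA was followed in rat lung. They were found by symbol in a deposited table of 22250 genes, where each of the 7 symbols had 1 row, and all 7 passed the filter that left 14320 genes for testing. The set was chosen by the level of Lilrb3, which was higher in XBS lungs, so the difference of Lilrb3 between XBS and MOD describes the choice and tests nothing. The other 6 receptors were taken for their role in the same kind of cell, with earlier results of these data known.

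The series holds 10 RNA sequencing libraries of lung tissue from Rattus norvegicus, 5 named XBS and 5 named MOD. Its design text describes rats with neutrophilic asthma brought about by ovalbumin, the allergen of egg white, together with the bacterial product lipopolysaccharide, and the administration of a formula called SP. Neither XBS nor MOD is spelled out in the labels or tied to SP, and strain, age, dose and sampling time are not given there, so the groups are compared under their own names. A human bronchial line, 16HBE, is also listed in the labels, while the table holds rat gene identifiers and all 7 genes of a lung identity list were present, with a sum between 17342 and 25499 CPM in XBS libraries and between 25892 and 28883 CPM in MOD libraries. CPM is the read count divided by the scaled library size in units of 1e6 counts. Every XBS sum of the lung genes lay below every MOD sum. All 7 had a negative fold change, where 51.9% of all genes tested had a positive one. None passed by edgeR (2 lower at an unadjusted p under 0.05, against 5.78% of all genes tested), and 0 passed by DESeq2 or limma voom. The smallest library, XBS 1, held 11998979 counts and the largest, XBS 4, held 15518929, which puts the floor of 3 counts at 0.19 to 0.247 CPM (counting error only). Whether each library stands for an animal of its own is not said in the labels, so the p-values weigh differences against a spread among libraries that may be technical in origin.

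Inhibitory receptors carry short tyrosine motifs in their cytoplasmic tails, called ITIMs, which are phosphorylated by Src family kinases when the receptor is brought close to an activating one. The phosphorylated motif recruits the phosphatases SHP-1, SHP-2 or SHIP-1, which remove phosphates from signalling proteins or membrane lipids and so restrain activation. Many activating receptors work the other way round, through adaptors with an ITAM motif that recruits the kinase SYK, and several receptor families hold members of both kinds side by side in the genome. In the lung such receptors sit on macrophages, monocytes, neutrophils, dendritic cells and mast cells.

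The 3 receptors with the largest fold changes, Lilrb3, Lilrb4 and Cd300lf, are shown by the 300 bases around their gene starts, 250 before and 50 after, because genes of myeloid cells are commonly driven from such regions by the transcription factor PU.1. The sequences are RefSeq's on build GRCr8, on the minus strand of the chromosome and written 5′ to 3′ in the gene's direction, with capitals on each match to GAGGAA, the core that PU.1 binds, read on either strand (TTCCTC on the opposite one).
Lilrb3 chr1:79011005-79011304: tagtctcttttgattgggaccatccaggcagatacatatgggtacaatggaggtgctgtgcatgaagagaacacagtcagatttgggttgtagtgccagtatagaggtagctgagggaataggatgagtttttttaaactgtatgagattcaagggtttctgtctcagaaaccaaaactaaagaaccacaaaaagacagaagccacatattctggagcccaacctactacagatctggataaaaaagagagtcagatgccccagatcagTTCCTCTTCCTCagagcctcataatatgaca
Lilrb4 chr1:78853203-78853502: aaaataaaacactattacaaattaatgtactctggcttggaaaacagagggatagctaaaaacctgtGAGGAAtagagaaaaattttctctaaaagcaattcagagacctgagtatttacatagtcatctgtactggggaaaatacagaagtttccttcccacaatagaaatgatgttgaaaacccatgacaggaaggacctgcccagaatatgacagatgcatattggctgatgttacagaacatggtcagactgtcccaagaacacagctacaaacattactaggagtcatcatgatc
Cd300lf chr10:100874973-100875272: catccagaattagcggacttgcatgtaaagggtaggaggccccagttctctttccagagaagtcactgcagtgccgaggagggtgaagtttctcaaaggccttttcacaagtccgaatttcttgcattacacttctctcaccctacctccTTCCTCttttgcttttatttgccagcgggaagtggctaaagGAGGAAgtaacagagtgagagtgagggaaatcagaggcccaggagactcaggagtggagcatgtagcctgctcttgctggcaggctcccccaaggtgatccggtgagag
Of the 7 receptors, 4 had such a sequence in the RefSeq table used here. Lilrb3 held 2 adjoining matches on the opposite strand, 19 and 25 bases after the start. Cd300lf held 2 matches, 100 and 59 bases before the start, and Lilrb4 held 1, which began 183 bases before it. Cd300a, the fourth, held none. Of all 33469 RefSeq regions of this length, 27.6% held GAGGAA. On either strand, the core that nuclear receptors bind, AGGTCA, was in none of the 4 (16.2% of all regions), and TTNNGNAA, bound by C/EBP factors, had 2 matches in Cd300lf and 1 in Lilrb4 (41.3% of all regions). A match is a string of letters and was not tested as a binding site.

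Lilrb3 is the rat gene named after the human leukocyte immunoglobulin-like receptor B3, an ITIM receptor of myeloid cells related to mouse PIR-B. It stood at 17.0, 22.2, 19.5, 11.6 and 13.1 CPM in XBS 1 to XBS 5, against 6.02, 4.33, 4.61, 6.45 and 7.93 CPM in MOD 1 to MOD 5. Every XBS library lay above every MOD library. In bulk lung, fewer cells of a type and less RNA per cell cannot be told apart. The read counts behind these levels were 183 to 300 in XBS and 60 to 112 in MOD. The means were 16.7 ± 4.37 CPM in XBS and 5.87 ± 1.46 CPM in MOD (SD, n = 5 each), with a log2 fold change of 1.51 ± 0.22 (SE), or 2.84-fold. The value behind its choice was edgeR's adjusted p = 0.0412, and the nearest receptor outside the threshold of 0.05 was Lilrb4 with 0.154. That p stayed under 0.05 in 3 of the 10 fits without a single library (XBS 4, XBS 5 or MOD 5) and was 0.0802 to 0.144 in the other 7, while the log2 fold change ranged from 1.38 to 1.64. Over all 18 alternatives tried the adjusted p was under 0.05 in 9 and ranged from 2.18e-07 to 0.166. Of all genes tested, 0.0279% passed in this direction, 0.0489% in the other and 0.0768% in either. In 1.61% every XBS library lay above every MOD library, and in 1.13% below. Lilrb3 (ENSRNOG00000046683) lies on chromosome 1 from 73610149 to 73619356 on the minus strand, in the coordinates of the table, for which no source used here names a rat build.

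Lilrb4, whose mouse counterpart gp49B restrains mast cells and macrophages, had the next largest difference. It had 68.7, 92.1, 115, 79.4 and 58.1 CPM in XBS 1 to XBS 5, against 38.6, 47.5, 37.3, 38.5 and 67.1 CPM in MOD 1 to MOD 5. The groups overlapped through XBS 5 and MOD 5 alone, since the other 4 XBS libraries lay above all MOD libraries. Means were 82.6 ± 21.9 CPM in XBS and 45.8 ± 12.6 CPM in MOD (SD, n = 5 each), 1.80-fold, with a log2 fold change of 0.85 ± 0.21 (SE). Lilrb4 did not pass over all genes tested by edgeR (adjusted p = 0.154), but passed by DESeq2 (adjusted p = 0.00793). Over all other settings tried, its adjusted p ranged from 0.0720 to 0.373. Its row (ENSRNOG00000027811) lies on chromosome 1 from 73393850 to 73399579, in the same stretch as Lilrb3.

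**Figure D1:**
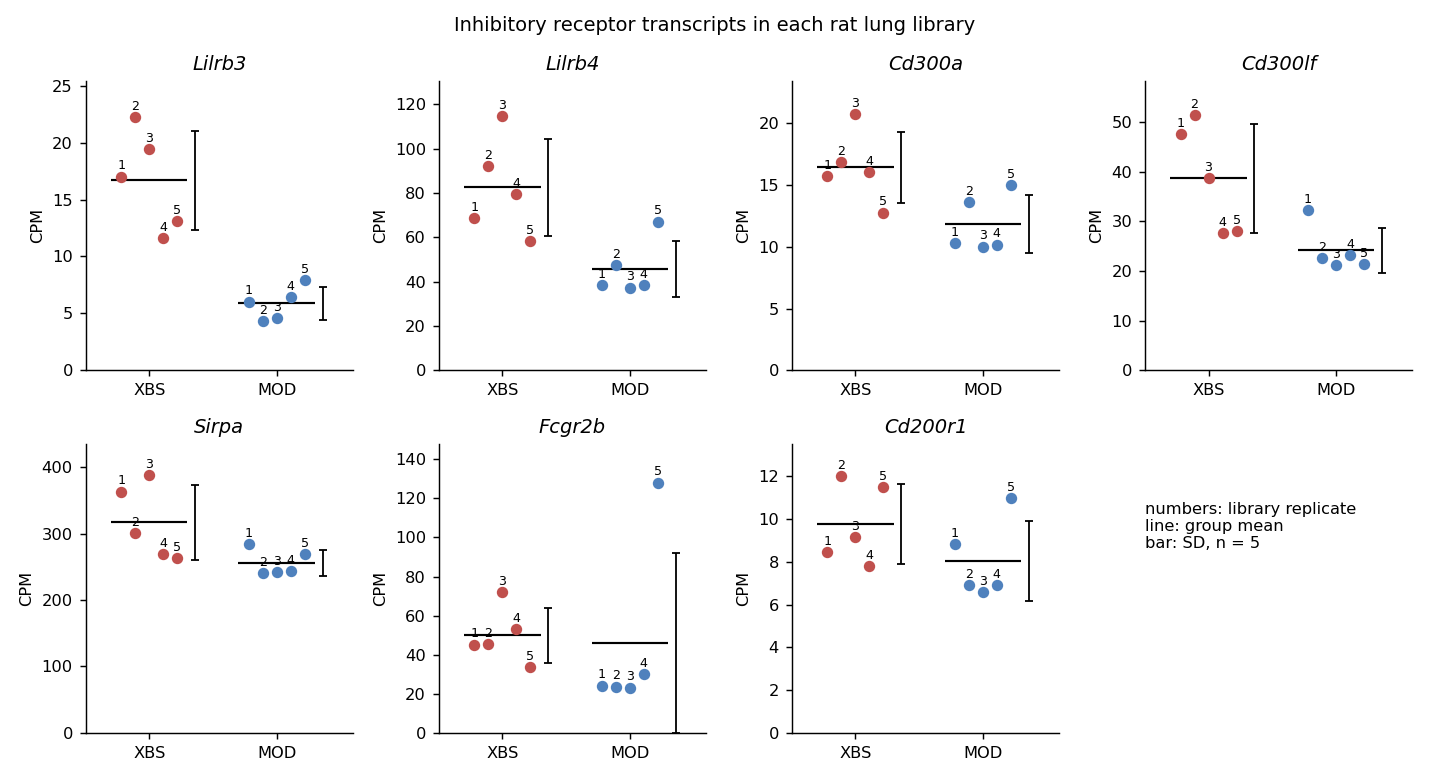
Levels of the 7 receptors in CPM (vertical axes, each from 0) in the 5 XBS and 5 MOD libraries; points are libraries with their replicate number, lines are group means and bars are SD. Lilrb3 is the receptor whose groups are apart, and MOD 5 is the highest point for Fcgr2b at 128 CPM, where the lower end of the MOD bar is cut at 0.

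The same gene family offered 5 further rows. All 7 Lilr and Pir rows had a positive fold change, where 51.9% of all genes tested did. These 7 include Lilrb4, and also Lilrb3, which was chosen for its higher level in XBS. Lilrb2, named after another human ITIM receptor, stood at 7.81, 11.5, 4.71, 4.05 and 4.16 CPM in XBS 1 to XBS 5, against 2.51, 3.17, 2.27, 3.06 and 2.48 CPM in MOD 1 to MOD 5. Every XBS library lay above every MOD library, XBS 1 and XBS 2 furthest (log2 fold change 1.25 ± 0.31 SE, adjusted p = 0.154). Lilrb3a, a row of its own on chromosome 1 from 63759638 to 64013289, averaged 13.5 ± 2.20 CPM in XBS and 8.90 ± 1.08 CPM in MOD (SD, n = 5 each; log2 fold change 0.60 ± 0.14 SE, adjusted p = 0.140), again without overlap. Both passed by DESeq2, where 1.41% of the genes with an adjusted p were higher, and not by edgeR. Separation of every XBS library above every MOD library held in 1.61% of all genes tested. Lilra5, whose human namesake is an activating member, had a log2 fold change of 0.35 ± 0.13 (SE), Lilrc2 0.40 ± 0.20 and Pirb 0.33 ± 0.32, with groups that overlapped. Lilrb3 made up 11.1 ± 1.97% of the family's summed CPM in XBS and 6.71 ± 1.29% in MOD (SD, n = 5 each). The 5 XBS shares (8.28% to 13.1%) lay above the 5 MOD shares (4.64% to 7.78%). This separation partly restates the choice of Lilrb3 by its level. Members of this family resemble each other closely, and reads may have been split between them in the authors' counting, so values of single rows are uncertain.

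Cd300a and Cd300lf belong to a family of lipid-binding receptors on chromosome 10, and both were higher on average in XBS. Cd300lf, an ITIM receptor known in mouse to bind ceramide and sphingomyelin, had 47.6, 51.4, 38.7, 27.6 and 27.97 CPM in XBS 1 to XBS 5, against 32.3, 22.6, 21.2, 23.2 and 21.4 CPM in MOD 1 to MOD 5. The groups overlapped through MOD 1, which lay above XBS 4 and XBS 5. Means were 38.6 ± 10.9 CPM in XBS and 24.1 ± 4.62 CPM in MOD (SD, n = 5 each; log2 fold change 0.68 ± 0.20 SE, adjusted p = 0.209). By DESeq2 Cd300lf passed (adjusted p = 0.0440); over the other settings its adjusted p ranged from 0.114 to 0.438. Cd300a, an ITIM receptor that binds phosphatidylserine on dying cells, had 15.7, 16.9, 20.7, 16.1 and 12.8 CPM in XBS 1 to XBS 5, against 10.3, 13.6, 10.02, 10.2 and 15.0 CPM in MOD 1 to MOD 5. Of the XBS libraries, 4 lay above all MOD libraries and XBS 5 lay within the MOD range. It did not pass (log2 fold change 0.47 ± 0.16 SE, adjusted p = 0.268). Cd300a (ENSRNOG00000057058) lies on the plus strand from 103438303 to 103450947 and Cd300lf (ENSRNOG00000021424) on the minus strand from 103670028 to 103687425. Relatives next to them in the table were Cd300e, known in human as an activating receptor of monocytes (0.60 ± 0.25 SE, adjusted p = 0.354), Cd300le (0.44 ± 0.27) and Cd300lb (0.22 ± 0.25), on the log2 fold change scale.

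Sirpa, the ITIM receptor through which phagocytes read CD47 on other cells, was the most abundant of the 7. It had 363, 300.3, 388, 269 and 264 CPM in XBS 1 to XBS 5, against 285, 240.4, 242, 244 and 269.6 CPM in MOD 1 to MOD 5. XBS 1, XBS 2 and XBS 3 lay above all MOD libraries, and XBS 4 and XBS 5 lay within the MOD range. Means were 317 ± 56.3 CPM in XBS and 256 ± 19.96 CPM in MOD (SD, n = 5 each; log2 fold change 0.31 ± 0.12 SE, adjusted p = 0.313). Sirpa (ENSRNOG00000004763) lies on chromosome 3 from 122114108 to 122152477 on the plus strand. Its neighbour Sirpb3 on chromosome 3, a row of the same family, had a negative fold change (log2 -0.22 ± 0.31 SE, adjusted p = 0.791), with MOD 5 at 10.8 CPM and the other MOD libraries at 23.4 to 29.1 CPM.

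Fcgr2b encodes the inhibitory receptor for immunoglobulin G, which dampens B cells, macrophages and mast cells when antibody complexes bind. It stood at 45.1, 45.5, 71.9, 53.1 and 33.5 CPM in XBS 1 to XBS 5, against 24.2, 23.6, 23.2, 29.9 and 128 CPM in MOD 1 to MOD 5. MOD 5 was the highest of all 10 libraries, 5.36 times the median of MOD 1 to MOD 4, and these 4 lay below all XBS libraries. With all libraries the means were 49.8 ± 14.2 CPM in XBS and 45.8 ± 46.1 CPM in MOD (SD, n = 5 each), with a log2 fold change of 0.12 ± 0.49 (SE, adjusted p = 0.932). Without MOD 5 the log2 fold change was 0.98 ± 0.20 (SE) and still did not pass (adjusted p = 0.0986), so this library decides the value. Fcgr2b (ENSRNOG00000046452) spans chromosome 13 from 89327794 to 89433815 on the minus strand and encloses Fcgr3a, on the plus strand from 89385859 to 89396051. Without strand in the counting, which the sources used here do not state, reads of both genes could not be told apart there.

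MOD 5 was also the lowest MOD library for Fcgr3a, an activating receptor for immunoglobulin G, which had 70.1, 76.5, 63.4, 46.0 and 38.5 CPM in XBS 1 to XBS 5, against 42.3, 38.6, 44.9, 42.4 and 26.1 CPM in MOD 1 to MOD 5 (log2 fold change 0.60 ± 0.20 SE, adjusted p = 0.264). Fcgr1a, the high-affinity activating receptor, averaged 45.0 ± 7.42 CPM in XBS and 31.8 ± 3.76 CPM in MOD (SD, n = 5 each; log2 fold change 0.50 ± 0.12 SE, adjusted p = 0.154), and 4 XBS libraries lay above all MOD libraries. For Fcgr2a the log2 fold change was 0.29 ± 0.26 (SE). MOD 5 was the highest MOD library for Lilrb3, Lilrb4, Cd300a, Fcgr2b and Cd200r1, and not for Cd300lf or Sirpa. The share of all genes tested with MOD 5 highest was not counted, so nothing is read from this. Among genes of the lists below, singled out after their values were seen, Trem2, a lipid-sensing receptor of macrophages, had 31.2 CPM in MOD 5 against 4.90 to 8.82 CPM in the other MOD libraries, and Apoe, a lipid transport protein made by macrophages, had 1708 CPM against 258 to 689 CPM.

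**Figure D2:**
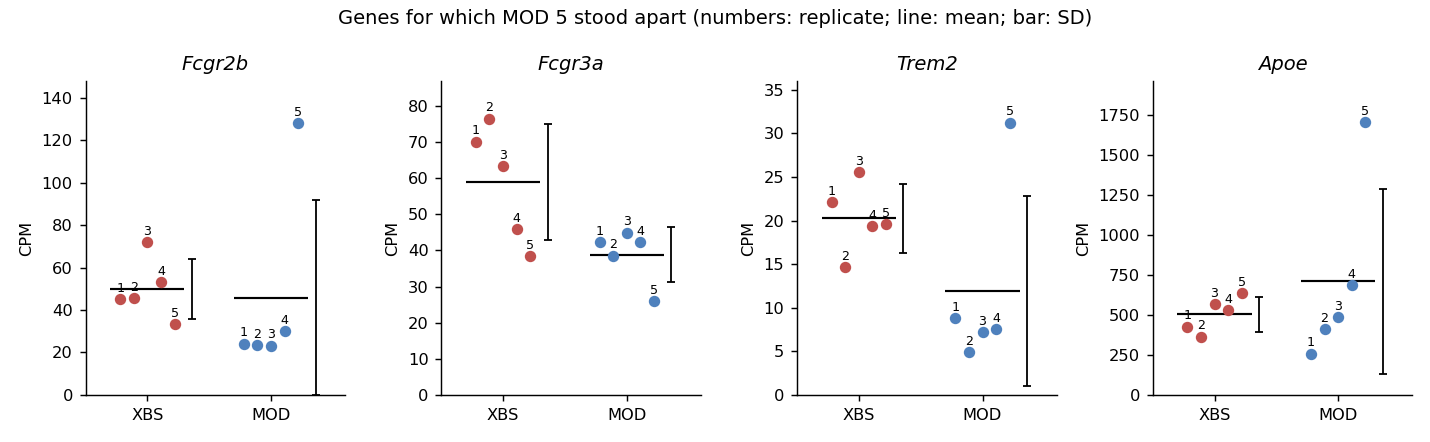
Levels in CPM (vertical axes from 0) of Fcgr2b, of Fcgr3a that lies within its span, and of Trem2 and Apoe in each XBS and MOD library; numbers are replicates, lines are means and bars are SD. MOD 5 lies at 128 CPM for Fcgr2b, 31.2 CPM for Trem2 and 1708 CPM for Apoe, above all other libraries, and at 26.1 CPM for Fcgr3a, below them.

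Cd200r1 encodes the receptor for CD200, which has no ITIM and signals through the adaptors DOK1 and DOK2. Its levels were 8.47, 12.0, 9.16, 7.78 and 11.5 CPM in XBS 1 to XBS 5, against 8.82, 6.92, 6.58, 6.91 and 11.0 CPM in MOD 1 to MOD 5. The groups overlapped, with XBS 2 and XBS 5 above MOD 5 and the other XBS libraries among the MOD values (log2 fold change 0.28 ± 0.19 SE, adjusted p = 0.519). Cd200r1 (ENSRNOG00000039048) lies on chromosome 11 from 60848131 to 60882379 on the minus strand. Its relative Cd200r1l averaged 3.51 ± 1.66 CPM in XBS and 1.78 ± 0.433 CPM in MOD (SD, n = 5 each; log2 fold change 0.97 ± 0.34 SE, adjusted p = 0.285). The ligand gene Cd200 averaged 119 ± 22.3 CPM in XBS and 125 ± 8.32 CPM in MOD (SD, n = 5 each; adjusted p = 0.839).

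Leaving aside Lilrb3, for which the set was chosen, the other 6 receptors had positive log2 fold changes with a median of 0.39. Of all genes tested, 51.9% were positive and the median was 0.01. These 6 receptors were chosen with earlier results of these data known. Of these 6, 0 passed by edgeR (4 at an unadjusted p under 0.05, where 7.4% of all genes tested were higher and 5.78% lower at that p). By DESeq2 2 passed, where 1.41% of the genes with an adjusted p were higher, and by limma voom 0 passed, where 0.3% were higher. Of 18 relatives found by symbol, 17 were tested, 14 with a positive and 3 with a negative fold change. None of the 17 passed by edgeR (7 higher at an unadjusted p under 0.05) or by limma voom, and 3 passed by DESeq2, Lilrb2, Lilrb3a and Fcgr1a. In 2 of the 17, Lilrb2 and Lilrb3a, every XBS library lay above every MOD library, as in 1.61% of all genes tested.

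**Figure D3:**
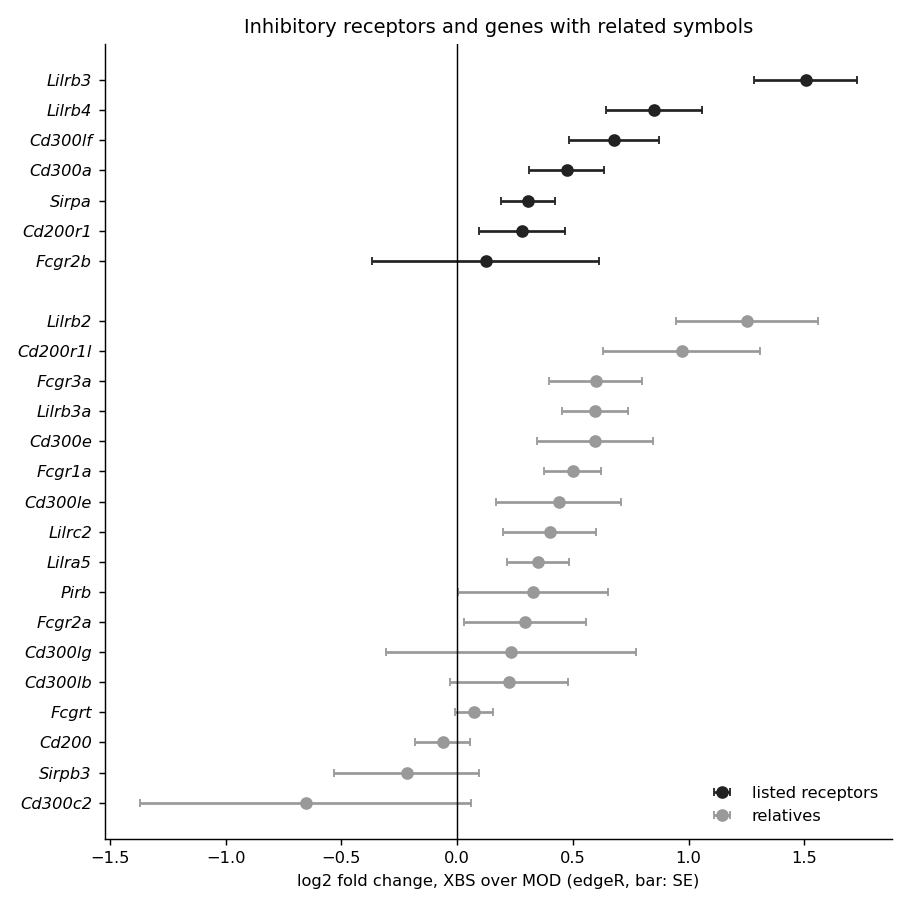
Log2 fold change of XBS over MOD (horizontal axis, edgeR, bars SE) for the 7 receptors (black) and 17 tested relatives by symbol (grey). All 7 receptors lie right of 0, Lilrb3 furthest at 1.51, and Cd300c2, Sirpb3 and Cd200 are the relatives left of 0.

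Per length of transcript, as FPKM (counts per kilobase of transcript and 1e6 counts), the order over all 10 libraries was Sirpa (71.1 ± 12.4), Lilrb4 (37.8 ± 14.8), Cd300lf (16.8 ± 5.99), Cd300a (14.4 ± 3.43), Fcgr2b (12.8 ± 8.43), Lilrb3 (4.67 ± 2.69) and Cd200r1 (3.53 ± 0.806; SD, n = 10). Sirpa was above Lilrb4, and Lilrb4 above Cd300lf, in 10 of 10 libraries, and Fcgr2b was above Lilrb3 in 10 of 10. Cd300lf was above Cd300a in 6 of 10 libraries and Lilrb3 above Cd200r1 in 5 of 10, so the order of these neighbours changed between libraries. Cd300a was above Fcgr2b in 9 of 10, MOD 5 being the exception. The 5 libraries in which Lilrb3 exceeded Cd200r1 were XBS 1 to XBS 5. Lilrb3 was chosen for its higher level in XBS, so this change of order restates that choice in large part. Lilrb3 averaged 6.94 ± 1.75 FPKM in XBS and 2.40 ± 0.584 FPKM in MOD (SD, n = 5 each).

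The summed level of general leukocyte genes was also higher throughout XBS, with no overlap with MOD. For 7 pan-leukocyte genes, none of them at 0, the sum lay between 1462 and 1911 CPM in XBS and between 1259 and 1453 CPM in MOD, with 6 of 7 genes positive and a median log2 fold change of 0.30. Lilrb3 was chosen for its higher level in XBS, so its separation against any such sum restates that choice in large part. Set against the pan-leukocyte sum in each library, Lilrb3 had groups without overlap. Its log2 ratios were -6.97 to -6.24 in XBS and -8.39 to -7.44 in MOD, a mean difference of 1.22. The same difference was 0.56 for Lilrb4, 0.36 for Cd300lf, 0.19 for Cd300a and for Fcgr2b, 0.01 for Sirpa and 0.00 for Cd200r1, and in these 6 the groups overlapped. For Fcgr2b the difference was 0.65 without MOD 5, a choice made after the data were seen. Against the sum of 14 monocyte and interstitial macrophage genes, most of whose sum is Lyz2, the difference was 1.41 for Lilrb3 and 0.76 for Lilrb4, and against 19 neutrophil genes, a list used for this after the data were seen, 1.06 and 0.41.

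**Figure D4:**
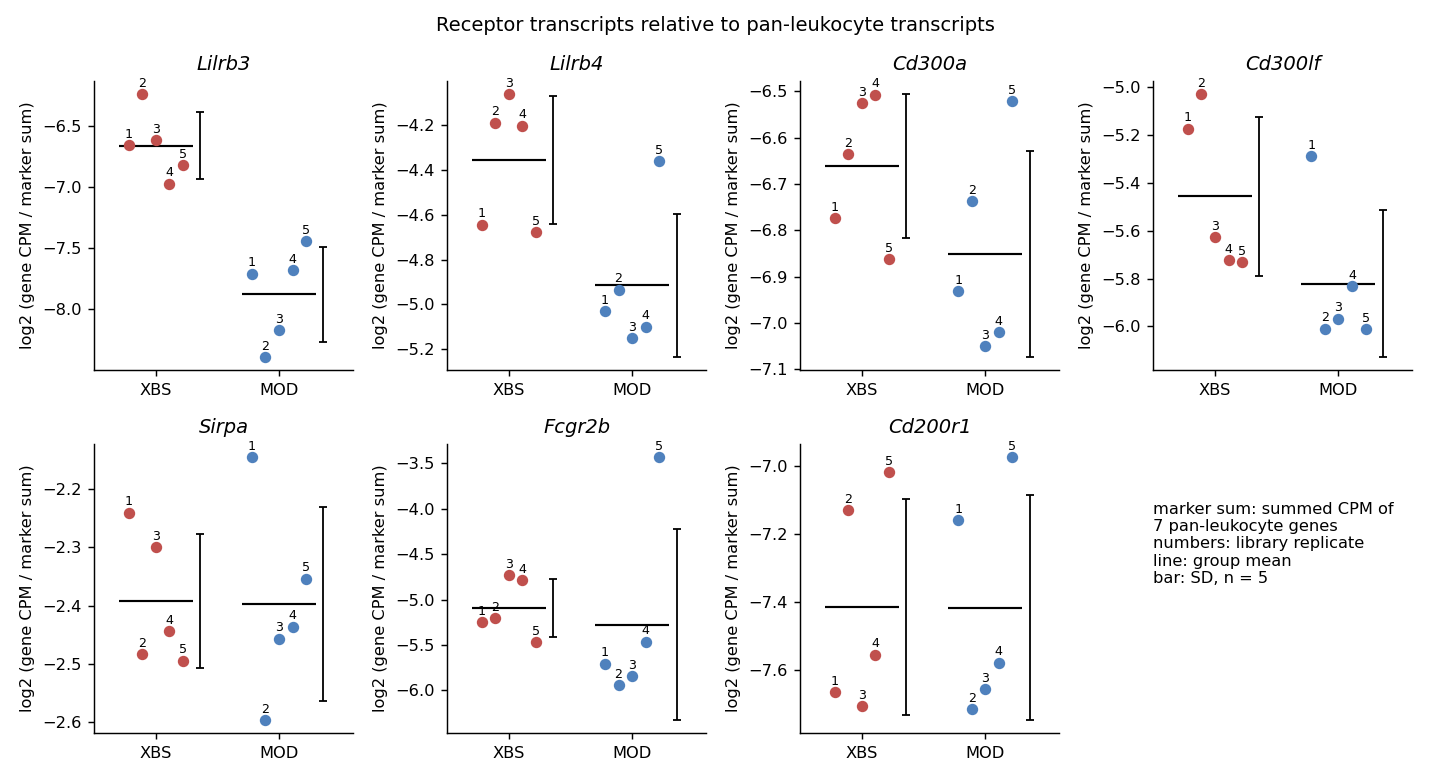
Log2 of each receptor's CPM over the summed CPM of 7 pan-leukocyte genes (vertical axes, not from 0) in the XBS and MOD libraries; numbers are replicates, lines are means and bars are SD. For Lilrb3 every XBS library (-6.97 to -6.24) lies above every MOD library (-8.39 to -7.44), and in the other panels the groups overlap. Lilrb3 was chosen for its higher level in XBS, which its separation here restates in large part.

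Marker genes of the cells that can carry these receptors were summed in each library. A single gene made up most of some sums, Lyz2 for monocytes, Cd74 for dendritic cells, Kit for mast cells, Alox15 for eosinophils and, on average, Pf4 for platelets. For the counts and medians that follow, 51.9% of all genes tested were positive and their median log2 fold change was 0.01. Neutrophil genes (19 in the table, 15 tested, 15 positive, median log2 fold change 0.45) summed to 445 to 1026 CPM in XBS, highest in XBS 2, and to 387 to 609 CPM in MOD. Monocyte and interstitial macrophage genes (12 of 14 positive, median 0.34) summed to 13318 to 33875 CPM in XBS, against 18614 to 26645 CPM in MOD, and alveolar macrophage genes (8 of 8 tested positive, median 0.30) to 652 to 940 CPM in XBS, against 610 to 720 CPM in MOD. Dendritic cell genes (7 of 10 positive, median 0.21) summed to 2106 to 2821 CPM in XBS, against 1845 to 3011 CPM in MOD, highest in MOD 5. B cell genes (10 of 11 positive, median 0.39) summed to 157 to 325 CPM in XBS, against 127 to 250.4 CPM in MOD. T cell genes (10 of 12 positive, median 0.15) summed to 226 to 283 CPM in XBS, against 161 to 222 CPM in MOD, and NK and cytotoxic genes (7 of 7 tested positive, median 0.19) to 119 to 222 CPM in XBS, against 124 to 169 CPM in MOD. Mast cell genes (4 of 7 tested positive, median 0.02) summed to 158 to 265 CPM in XBS, against 186 to 268 CPM in MOD, eosinophil genes (0 of 2 tested positive, median -0.56) to 20.1 to 36.4 CPM in XBS, against 22.8 to 67.3 CPM in MOD, and platelet genes (3 of 5 tested positive, Gp1bb at 0) to 36.8 to 74.8 CPM in XBS, against 29.1 to 70.1 CPM in MOD. No gene of these lists passed by edgeR (at an unadjusted p under 0.05, 4 monocyte, 2 alveolar macrophage, 2 dendritic cell, 1 neutrophil, 1 B cell and 1 T cell gene were higher, against 7.4% of all genes tested). By DESeq2, where 1.41% of the genes with an adjusted p were higher, C1qb and Itgax passed here. So did Coro1a and Ptprc of the pan-leukocyte list, and by limma voom none did. The part of these cells in the receptor values was not tested.

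XBS 2 and XBS 3, the libraries highest for Lilrb3, Lilrb4 and Cd300a, stood apart in airway genes, none of which passed. Club cell genes summed to 2012 and 2265 CPM in these libraries, against 7427 to 8540 CPM in the other XBS libraries and 7497 to 11616 CPM in MOD. Ciliated cell genes summed to 335 and 342 CPM, against 544 to 879 CPM and 619 to 743 CPM. Scgb1a1 made up most of the club cell sum and Tppp3 most of the ciliated cell sum. Leaving both out, a choice made after the data were seen, gave a log2 fold change of 1.24 ± 0.22 (SE) for Lilrb3 (adjusted p = 0.142), 0.59 ± 0.20 for Lilrb4, 0.51 ± 0.21 for Cd300lf and 0.33 ± 0.17 for Cd300a. XBS 5 had the highest sum of thymus and lymph node genes, 339 CPM, against 117 to 183 CPM in all other libraries (Fdcsp at 0). Ccl21 made up most of this sum in every library. Ccl21 (195 CPM), Cr2 (50.8 CPM), Ccl19 (38.1 CPM) and Cxcl13 (26.8 CPM) were highest in XBS 5. Other genes of the list were not: Dntt was at 1.43 CPM there, Rag1 at 0.43 CPM, Rag2 and Ptcra at 0, and Cd1d1 at 25.8 CPM. XBS 5 was the lowest XBS library for Lilrb4, Cd300a, Sirpa and Fcgr2b. The part of these libraries' tissue makeup in the receptor values was not tested.

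The enzymes and adaptors that act below the receptors had fold changes in both directions. Of 14 tested, 8 had a positive and 6 a negative fold change, with a median log2 fold change of 0.11. None passed by edgeR (4 higher and 0 lower at an unadjusted p under 0.05, against 7.4% and 5.78% of all genes tested). By DESeq2 and by limma voom 1 passed, Dok3, where 1.41% and 0.3% of the genes with an adjusted p were higher. Dok3 is named here for its edgeR p, the smallest of the list. Dok3, an adaptor that restrains immune receptor signalling, averaged 30.9 ± 4.97 CPM in XBS and 20.6 ± 2.50 CPM in MOD (SD, n = 5 each; log2 fold change 0.58 ± 0.12 SE, adjusted p = 0.106). Every XBS library lay above every MOD library, where 1.61% of all genes tested were so separated. Dok2, an adaptor of the CD200 receptor, had a log2 fold change of 0.51 ± 0.17 (SE, adjusted p = 0.249) and the Src family kinase gene Fgr 0.38 ± 0.13 (adjusted p = 0.253). For Dok1, the other adaptor of that receptor, it was 0.09 ± 0.10 (SE, adjusted p = 0.726). The phosphatase genes were closer to 0 on the log2 fold change scale, at 0.12 ± 0.09 (SE) for Ptpn6 (SHP-1), -0.17 ± 0.08 for Ptpn11 (SHP-2) and 0.26 ± 0.09 for Inpp5d (SHIP-1), with adjusted p = 0.586, 0.387 and 0.264.

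The list of activating receptors and ITAM adaptors also holds Syk, Btk, Plcg2, Vav1 and Itgam. Fcgr1a, Fcgr2a, Fcgr3a, Lilra5, Cd300lb and Cd300le of this list are among the relatives above as well, so the counts overlap. Fold changes were positive in 22 of 22 tested genes, with a median log2 fold change of 0.36. Of all genes tested, 51.9% were positive. None of the 22 passed by edgeR or limma voom, and 12 were higher at an unadjusted p under 0.05 by edgeR (7.4% of all genes tested). By DESeq2 3 passed, Fcgr1a, Syk and Tyrobp (1.41% of the genes with an adjusted p were higher). Tyrobp, the adaptor DAP12, averaged 117 ± 26.7 CPM in XBS and 80.5 ± 4.88 CPM in MOD (SD, n = 5 each; log2 fold change 0.54 ± 0.14 SE, adjusted p = 0.166). Syk, the kinase recruited by ITAMs, averaged 104 ± 11.6 CPM in XBS and 80.6 ± 10.1 CPM in MOD (SD, n = 5 each; log2 fold change 0.37 ± 0.10 SE, adjusted p = 0.197).

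Other inhibitory receptors of leukocytes were positive in 26 of 28 tested genes, with a median log2 fold change of 0.39. Of all genes tested, 51.9% were positive. By edgeR none of the 28 passed (11 higher at an unadjusted p under 0.05, against 7.4% of all genes tested), nor did any by limma voom. Clec4a and Clec4a1 passed by DESeq2 (1.41% of the genes with an adjusted p were higher). Clec4a, a C-type lectin known in human to carry an ITIM, stood at 4.19 to 6.81 CPM in XBS, against 2.93 to 4.25 CPM in MOD (log2 fold change 0.76 ± 0.19 SE, adjusted p = 0.158). Its relative Clec4a1 stood at 36.6 to 48.7 CPM in XBS, against 19.2 to 35.8 CPM in MOD (0.60 ± 0.15 SE, adjusted p = 0.162). Its groups did not overlap, where 1.61% of all genes tested had every XBS library above every MOD library. Clec4a3 had a log2 fold change of 0.59 ± 0.17 (SE, adjusted p = 0.209). Whether the products of Clec4a1 and Clec4a3 carry an ITIM or inhibit was not checked here. Pdcd1 was at 0 counts in every library.

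Ligand genes were split evenly, with 7 positive and 7 negative fold changes among 14 tested and a median log2 fold change of -0.02. None passed by edgeR, by DESeq2 or by limma voom, and 0 had an unadjusted p under 0.05 by edgeR. The 3 of smallest p were Thbs1, a matrix protein that binds CD47 (log2 fold change -0.13 ± 0.07 SE, adjusted p = 0.435), and the class I histocompatibility genes RT1-A1 (0.74 ± 0.41, adjusted p = 0.449) and RT1-A2 (1.10 ± 0.65, adjusted p = 0.474). RT1-A2 ranged from 20.9 to 275 CPM within XBS and from 20.6 to 147 CPM within MOD. Cd47, the ligand of the Sirpa product, averaged 168 ± 27.5 CPM in XBS and 179 ± 27.1 CPM in MOD (SD, n = 5 each; adjusted p = 0.795).

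**Figure D5:**
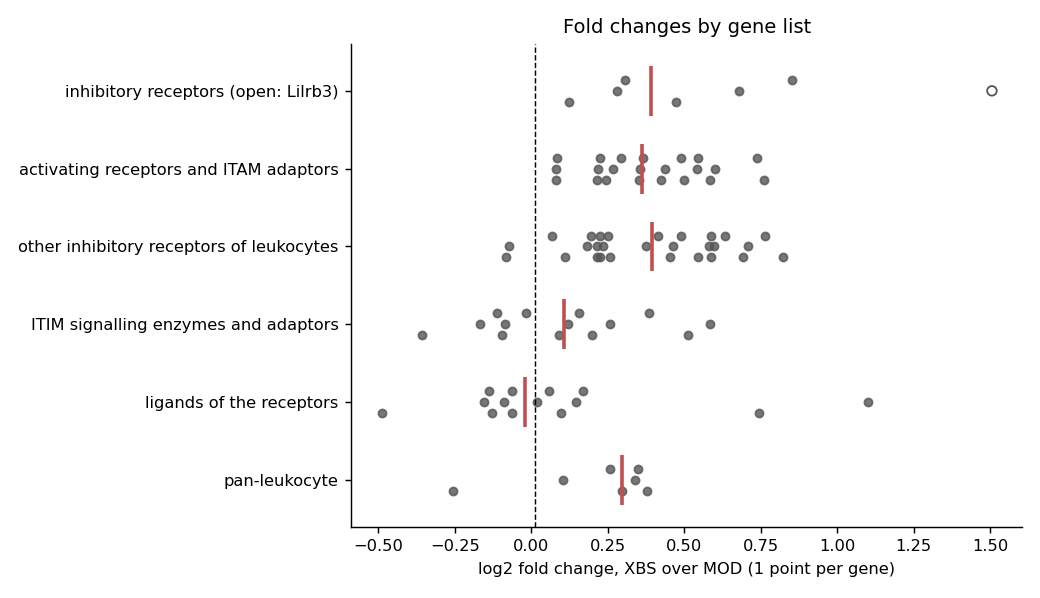
Log2 fold change of XBS over MOD (horizontal axis) for each tested gene of 6 lists; points are genes, red bars are list medians and the dashed line is the median of all genes tested (0.01). Lilrb3 is the open circle and is left out of its list's median. Medians were 0.39 for the other 6 receptors, 0.36 for activating receptors and adaptors, 0.39 for other inhibitory receptors, 0.11 for signalling enzymes, -0.02 for ligands and 0.30 for pan-leukocyte genes.

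The genes most like Lilrb3 over the 10 libraries were sought by the root mean square difference of log2 CPM, each gene centred on its own mean, which includes the difference between the groups, so that such a difference in these genes is part of how they were found. The nearest with a proper symbol were Ticrr, a factor of DNA replication, at 0.36, Ankle1, a DNA nuclease gene, at 0.36, Tifab at 0.37, Pax8, a transcription factor gene, at 0.37, and Depdc1 at 0.38 on the log2 scale. Ticrr stood at 3.67 to 5.52 CPM in XBS, against 1.76 to 2.79 CPM in MOD. Tifab stood at 18.8 to 26.5 CPM in XBS, against 10.5 to 15.8 CPM in MOD. Among the receptors Lilrb4 was nearest, at 0.44, with 15 other tested genes nearer to Lilrb3, and Cd300lf followed at 0.50; Fcgr2b was furthest, at 0.77.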

How the data were processed

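Messenger RNA was sequenced from 10 rat lung libraries. Per the labels' protocols, RNA was isolated with Trizol, purified as mRNA, fragmented and made into libraries with adapters and PCR. Per the file headers, the authors deposited read counts and FPKM for every gene in each library. The submitters' processing notes name hg38, GRCh38 and mm10, although identifiers are rat; no source used here gives the aligner, counter, annotation, rat build or strandedness. The deposited counts were whole and not normalized, and the deposited FPKM equalled count over length and total (largest relative deviation 8.82e-08). The 8 rows without a symbol carry a gene identifier (0.00516% of counts) and went through the same filter. Every pair of libraries in a group exceeded sampling noise (chi-square per degree of freedom at least 9.46).

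Counts were filtered (filterByExpr, minimum 10, total 15), TMM-scaled and fitted with edgeR 4.0.16 under R 4.3.3 (robust quasi-likelihood test of XBS over MOD). P-values were adjusted by Benjamini and Hochberg's method over 14320 genes, with a threshold of 0.05. Adjusted p-values are edgeR's unless another tool is named; SE is the log2 fold change over the square root of F. The code was tested on simulated data. DESeq2 1.42.0, limma 3.58.1 voom, other scalings and filters, a replicate block and leaving out each library were alternatives. The limma voom fit gave each library a weight by its quality, wherever it is named. Promoters came from RefSeq (GRCr8). Receptors and lists were chosen with earlier results of these data known. Named genes were the receptors, relatives by symbol, the 5 genes nearest to Lilrb3 and the 3 of smallest p in each of 4 lists; other genes are named for their role, or after their values were seen where said.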

Additional observations from a re-analysis of the deposited data

Results flagged for a closer look

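Single libraries stood apart from the rest of their group in 5 of 80 groups of 5 checked (40 genes named by rule). Chance gives about 1 in 20, so this count is near the chance rate. Fcgr2b in MOD 5 was at 128 CPM, with the next MOD library at 29.9 CPM. Clec4a in MOD 5 was at 4.25 CPM, with the next at 3.26 CPM. Cd300lf in MOD 1 was at 32.3 CPM, with the next MOD library at 23.2 CPM. Dok3 in MOD 1 was at 25.0 CPM, with the next at 19.8 CPM. Clec4a1 in XBS 3 was at 48.7 CPM, with the next XBS library at 39.5 CPM. Trem2, which was chosen after its values were seen and is not in that count, was at 31.2 CPM in MOD 5, with the next MOD library at 8.82 CPM. Whether anything sets these libraries apart was not tested.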

How the results depend on the processing

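The log2 fold changes of Lilrb3, Lilrb4, Cd300a, Cd300lf, Sirpa and Cd200r1 were positive under all 18 alternatives, and that of Fcgr2b under 13. Without a single library they ranged from 1.38 to 1.64 for Lilrb3, 0.70 to 1.03 for Lilrb4, 0.37 to 0.57 for Cd300a, 0.55 to 0.80 for Cd300lf, 0.22 to 0.37 for Sirpa, -0.04 to 0.98 for Fcgr2b and 0.20 to 0.42 for Cd200r1. Fcgr2b was -0.041 without XBS 3, -0.038 without MOD 1, -0.042 without MOD 2 and -0.045 without MOD 3, and -0.060 without XBS 2 and XBS 3 together, a choice made after the data were seen. By DESeq2, Lilrb4 (0.85) and Cd300lf (0.68) passed. The counts of genes passing over the whole table were 4 higher and 7 lower by edgeR, 194 and 141 by DESeq2, 43 and 24 by limma voom, and 0 and 3 without XBS 2 and XBS 3 together. Without a single library they ranged from 0 to 6 higher and 4 to 9 lower: 0 higher without XBS 2, XBS 3, MOD 2 or MOD 4, 1 without XBS 1 and 2 without MOD 3; 4 lower without XBS 1, XBS 2, XBS 3 or MOD 4. With the replicate number as a block, 0 genes were higher and 1 lower (edgeR, 2070 genes at an unadjusted p under 0.05), and Lilrb3 kept a log2 fold change of 1.49 (adjusted p = 0.166). Correlations of same-numbered libraries' deviations ran from -0.125 to 0.329, over 0.1 in 3 of 5 pairs. The numbers were therefore not used to pair libraries, since that was done only with every pair over 0.1 and the labels name nothing the pairs share. Against the monocyte and interstitial macrophage sum, the difference was 0.39 for Cd300a and 0.20 for Sirpa, and against the neutrophil sum -0.15 for Sirpa; the cause was not tested. Without a single library, the Fcgr2b difference against the pan-leukocyte sum ranged from 0.02 to 0.65. Depth limits Pirb most among the relatives named, at 16 to 45 counts per library.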

Other observations

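Cd300c2, a row of the CD300 family on chromosome 10 with no call (adjusted p = 0.708), had high and low libraries in both groups: 15.5 and 17.4 CPM in XBS 1 and XBS 4 and 2.94 to 5.32 CPM in the other XBS libraries, and 19.5 to 24.7 CPM in MOD 2, MOD 4 and MOD 5 and 2.37 and 2.78 CPM in MOD 1 and MOD 3. RT1-A2 was at 20.9 CPM in XBS 5 and 20.6 CPM in MOD 3, and at 146 to 275 CPM in the other XBS libraries.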
